A study of Mus musculus with 9 samples.

Results

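The Hox genes of the mouse lie in 4 clusters, HoxA, HoxB, HoxC and HoxD, on chromosomes 6, 11, 15 and 2. The open chromatin of 38 of these genes was examined in wild-type embryos, out of 21030 protein-coding genes. Accessible regions were taken as those whose assigned gene symbol was one of the 38, which gave 2 of 17164 distinct regions. A Hox gene without such a region was counted as having none.

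Open chromatin had been mapped by ATAC-Seq, a method that marks accessible DNA by adapter insertion with the enzyme Tn5, in pharyngeal mesoderm and hearts dissected at E8.75 (6 somites). There were 9 libraries, 3 each from wild-type controls, from Isl1 knockouts (Isl1-/-) and from Brg1 knockouts (Isl1Cre+/- Brg1fl/fl), the last with deletion of the chromatin remodeler Brg1 limited to cells that have expressed the Isl1-driven Cre. Only the wild-type group had values used here, and the mutant groups were not analysed here. These values were 1 list of regions found in all 3 control libraries, with position, assigned gene and distance to its transcription start site (TSS), but without peak height, score or any separate value for a library. The differences below therefore carry no error between embryos and no test was possible. The sequencing depth is unknown, and a region had to be called in each of the 3 libraries, so a gene without a region is not shown to have closed chromatin. The dissected tissue is a mixture of cell types, and a low share of open cells cannot be told apart from low accessibility in every cell.

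Hox genes encode homeodomain transcription factors that specify identity along the head to tail axis. Within each cluster the genes lie in the order in which they are activated in time and along the axis, from paralogue group 1 at the anterior end to group 13 at the posterior end. Retinoic acid and Cdx factors act on the clusters in the trunk, Pbx and Meis proteins are DNA binding partners of Hox proteins, and Polycomb and Trithorax group proteins keep the clusters silent or active. In the embryonic heart field and pharyngeal arches the anterior genes are the best studied. Hoxb1 marks posterior second heart field progenitors, Hoxa2 sets the identity of the second pharyngeal arch, and Hoxa3 is needed for the derivatives of the third.

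Both regions belonged to HoxC. Their centers are printed on the plus strand of mm9, with CpG dinucleotides in capitals, because they are the accessible sequences that the list assigns to Hox genes. For comparison, 200 bp windows upstream of an annotated start are printed on the strand of the gene. HoxA, HoxB and HoxD, the clusters without a region, have 1 such window each. Each was the window with most CpG in its cluster, among 44 windows of 27 Hox genes that held no annotated exon and no region at the start. The region at Hoxc13 is shown by chr15:102751088-102751387, which has 12 CpG dinucleotides and 59.3% GC. The region assigned to Hoxc4 is shown by chr15:102899655-102899954, with 17 CpG dinucleotides and 65% GC. The upstream windows are chr6:52210875-52211074 on the minus strand for Hoxa13 (33 CpG, 82.5% GC), chr11:96202059-96202258 on the plus strand for Hoxb3 (15 CpG, 63.5% GC) and chr2:74506167-74506366 on the plus strand for Hoxd13 (28 CpG, 79.5% GC). The Hoxb3 window lies inside the gene, upstream of an internal one of its 4 annotated starts.
Hoxc13 region center: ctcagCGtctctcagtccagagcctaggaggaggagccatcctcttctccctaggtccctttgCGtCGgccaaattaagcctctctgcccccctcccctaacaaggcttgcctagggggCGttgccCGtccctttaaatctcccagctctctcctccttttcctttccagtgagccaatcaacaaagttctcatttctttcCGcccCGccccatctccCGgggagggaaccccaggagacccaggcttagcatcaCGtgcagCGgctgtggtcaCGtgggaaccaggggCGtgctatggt
Hoxc4 region center: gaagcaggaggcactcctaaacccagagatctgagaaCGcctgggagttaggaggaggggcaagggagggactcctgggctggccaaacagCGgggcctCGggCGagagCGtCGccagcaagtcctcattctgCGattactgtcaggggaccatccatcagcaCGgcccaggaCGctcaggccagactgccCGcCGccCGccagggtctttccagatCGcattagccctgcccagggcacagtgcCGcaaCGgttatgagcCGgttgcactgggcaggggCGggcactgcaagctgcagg
Hoxa13 upstream: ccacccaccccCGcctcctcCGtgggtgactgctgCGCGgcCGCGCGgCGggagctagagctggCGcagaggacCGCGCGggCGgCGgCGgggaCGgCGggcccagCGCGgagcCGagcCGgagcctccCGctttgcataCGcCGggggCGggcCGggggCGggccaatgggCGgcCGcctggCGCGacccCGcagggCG
Hoxb3 upstream: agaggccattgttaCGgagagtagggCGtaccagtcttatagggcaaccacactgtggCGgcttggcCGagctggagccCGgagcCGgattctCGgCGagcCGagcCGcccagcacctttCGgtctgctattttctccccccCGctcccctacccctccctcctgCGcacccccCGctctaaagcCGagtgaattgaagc
Hoxd13 upstream: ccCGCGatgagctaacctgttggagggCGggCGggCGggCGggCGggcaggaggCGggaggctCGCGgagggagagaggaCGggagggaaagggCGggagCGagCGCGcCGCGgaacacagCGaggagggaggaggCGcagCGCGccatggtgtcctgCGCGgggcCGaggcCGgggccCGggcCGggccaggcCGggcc

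The dissected tissue was first compared with markers of the cells it could hold. Of 12 heart and pharyngeal mesoderm markers, 8 had an assigned region, with 33 regions in all, among them Isl1 (9 regions), Eya1 (8), Mef2c (5), Tbx20 (4) and Fgf10 (4). Tbx1, Gata6, Nkx2-5 and Tcf21 had none assigned, although an annotated start of Gata6 lay inside a region assigned to another gene. Markers of other cells also had regions, at 5 of 7 neural tube, 3 of 5 neural crest, 2 of 6 paraxial mesoderm and somite, 3 of 6 endoderm and 3 of 5 blood genes. Among all protein-coding genes 49.3% had one, so counts of this size do not tell which cells were present. The part of these cells in the Hox result was not tested.

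To determine which Hox genes carry open chromatin at this stage, assigned regions were counted per gene. Hoxc13 and Hoxc4 each had 1 region, and the other 36 Hox genes had none. The share with a region was 5.26% (2 of 38, 95% Wilson interval 1.46 to 17.3%), whereas 49.3% of all protein-coding genes (10364 of 21030) had an assigned region. Within 1 kb of the assigned TSS the count was 1 of 38, compared with 40.6% of coding genes. The intervals cover counting error only, and neighboring Hox genes share their chromatin, so the 38 genes are not independent.

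The 4 clusters were then compared. In HoxA a region was assigned to 0 of 10 genes (interval 0 to 27.8%), in HoxB to 0 of 10 (0 to 27.8%), in HoxC to 2 of 9 (22.2%, 6.32 to 54.7%) and in HoxD to 0 of 9 (0 to 29.9%). The intervals of the clusters overlap. The genes without a region were Hoxa2, Hoxa3, Hoxa4, Hoxa5, Hoxa6, Hoxa7, Hoxa9, Hoxa10, Hoxa11 and Hoxa13, then Hoxb1 to Hoxb9 and Hoxb13, then Hoxc5, Hoxc6, Hoxc8, Hoxc9, Hoxc10, Hoxc11 and Hoxc12, and finally Hoxd1, Hoxd3, Hoxd4, Hoxd8, Hoxd9, Hoxd10, Hoxd11, Hoxd12 and Hoxd13.

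No order along the paralogue groups could be read from so few regions. A region was listed for 0 of 7 anterior genes of groups 1 to 3 (interval 0 to 35.4%), 1 of 15 central genes of groups 4 to 8 (6.67%, 1.19 to 29.8%) and 1 of 16 posterior genes of groups 9 to 13 (6.25%, 1.11 to 28.3%). By group, this was 1 of 4 genes of group 4, where it belonged to Hoxc4, and 1 of 4 genes of group 13, where it belonged to Hoxc13. Hoxb1, Hoxa2 and Hoxa3, the anterior genes with known roles in the second heart field and pharyngeal arches, were among the genes without one.

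The region at Hoxc13, a posterior gene known for its role in hair and nail formation, lay at its promoter. It covered chr15:102750739-102751736 (998 bp), and the deposited distance of its center from the assigned TSS was -325 bp, on the upstream side. It reached from 795 bp before the annotated start to 202 bp after it. This was the 1 annotated start of a Hox gene, out of 82, that lay inside a region. The same region also covered Gm17649 (chr15:102751146-102751251), annotated as a protein-coding gene on the minus strand, to which no region was assigned. This region was narrower than most of its kind, since 16.3% of the 9083 regions within 1 kb of a TSS were narrower and their median width was 1294 bp. Its GC content of 57.4% and CpG frequency of 5.21 per 100 bp were close to the medians of that class (58.1% and 5.93).

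The region assigned to Hoxc4, a gene of the anterior part of its cluster, lay outside the cluster. It covered chr15:102899469-102900140 (672 bp), 34978 bp downstream of the assigned TSS and 32195 bp past the annotated end of the gene, in intergenic sequence. Among all 6740 regions beyond 10 kb, 11.1% were narrower and the median was 937 bp. It was richer in CpG than most such regions, at 3.12 per 100 bp against a median of 1.25, and 89% of the class had a lower value. Its GC content was 55.8% against a median of 46.8%. The assignment follows position and does not show that this region acts on Hoxc4.

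Binding motifs of factors connected with the clusters were searched on both strands in the 300 bp centers printed above. The Hoxc4 region held 1 match to the Hox-Pbx letters (TGATTGAT, TGATTAAT, TGATTTAT or TGATGGAT), which 2.76% of all regions and 5.53% of those beyond 10 kb hold. It also held 1 match to the Meis letters TGACAG, found in 18.5% of all regions and 24.6% of those beyond 10 kb. The Hoxc13 region held 1 match to the CTCF core, which was searched as GGGGGCG, as the overlapping string AGGGGGC and as the variant AGGTGGC, as did 30.9% of all regions and 40% of those within 1 kb. Neither center held the letters of Cdx (TTTATG), of the GATA factors (AGATAA), of Isl1 (TAATGG) or a direct repeat bound by retinoic acid receptors, searched as pairs of the string AGGTCA or its variants AGTTCA in some elements and GGTTCA in others, 2 or 5 bases apart. A match is a description of the letters and not evidence of binding.

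CpG-rich starts carried a region more often than CpG-poor ones, so the CpG frequency of the Hox genes was compared with that of 20203 coding genes with an annotated start. The frequency was the highest over a gene's starts, within 500 bp of each. Hox genes had a median of 5.79 CpG per 100 bp, above the median of 5.09 for coding genes, and 24 of the 38 reached that median. The order depended on the measure. With the median in place of the highest start the medians were 4.62 for Hox genes and 3.5 for coding genes, and within 250 bp of the highest start they were 6.19 and 6.39. The lowest value was 1.7 at Hoxb4 and the highest 14.7 at Hoxd8. By cluster the medians were 7.09 in HoxA, 4.35 in HoxB, 5.19 in HoxC and 6.49 in HoxD.

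Hox genes lacked regions at starts of a CpG frequency at which most coding genes had one. This was not particular to Hox genes, since most of the other clustered homeobox genes counted further below lacked one at the start too. Of the coding genes with an annotated start, 47.5% had a region centered within 1 kb of it, and this share rose from 0.465% in the lowest CpG decile to 62.1% in decile 5 and 76.9% in decile 10. In deciles 5 to 10, 8591 of 12109 coding genes (70.9%) had such a region, compared with 1 of 30 Hox genes (3.33%). When each Hox gene was given the share of its decile, the sum over the 38 genes was 23.7, and 1 gene was observed. The sums were 6.87 in HoxA, 5.51 in HoxB, 5.25 in HoxC and 6.06 in HoxD, and the gene observed was Hoxc13.

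**Figure D1:**
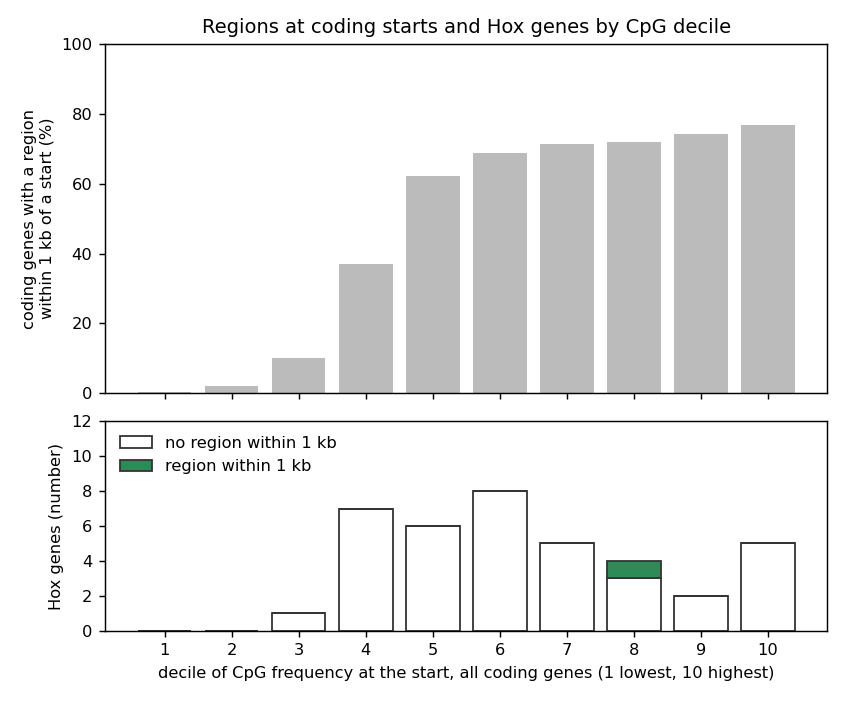
The upper bars give the percent of coding genes with a region centered within 1 kb of an annotated start in each decile of CpG frequency, and the lower bars give the number of Hox genes in the same deciles, filled where they had such a region. The upper share is 62.1% or more from decile 5 onward, and the filled part is 1 gene, Hoxc13, in decile 8.

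The most CpG-rich Hox genes were Hoxd8 (14.7 CpG per 100 bp), Hoxa13 (13.7), Hoxa4 (12.6), Hoxd11 (12.4) and Hoxd13 (11.8), all in the highest decile. None of these 5 had a region within 1 kb, whereas 1537 of the 1999 coding genes of that decile did. Hoxa13 and Hoxd13 pattern the digits, and Hoxd11 acts in the forearm and kidney. At the other end, the CpG-poor starts of Hoxb4 (1.7), Hoxb2 (2.6), Hoxb5 (3), Hoxc4 (3) and Hoxc5 (3) belonged to deciles 3 and 4, where 10.2% and 37% of coding genes had a region.

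The distance from each Hox start to the nearest region was measured next, whatever gene that region was assigned to. The median was 94865 bp for Hox genes, 3153 bp for coding genes and 0 bp for coding genes of CpG deciles 8 to 10. The nearest region lay more than 30 kb away for 36 of 38 Hox genes (94.7%), compared with 32.3% of coding genes. Hoxc13 and Hoxc12, at 0 and 15452 bp, were the exceptions. There was no region center within 100 kb of any start for 17 Hox genes (44.7%) and for 14.9% of coding genes. Such distances were not particular to Hox genes. Among the 12 heart and pharyngeal mesoderm markers, Nkx2-5 lay 75068 bp and Tcf21 87687 bp from the nearest region. The other markers of that list lay 29335 bp (Tbx1) or less from one.

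**Figure D2:**
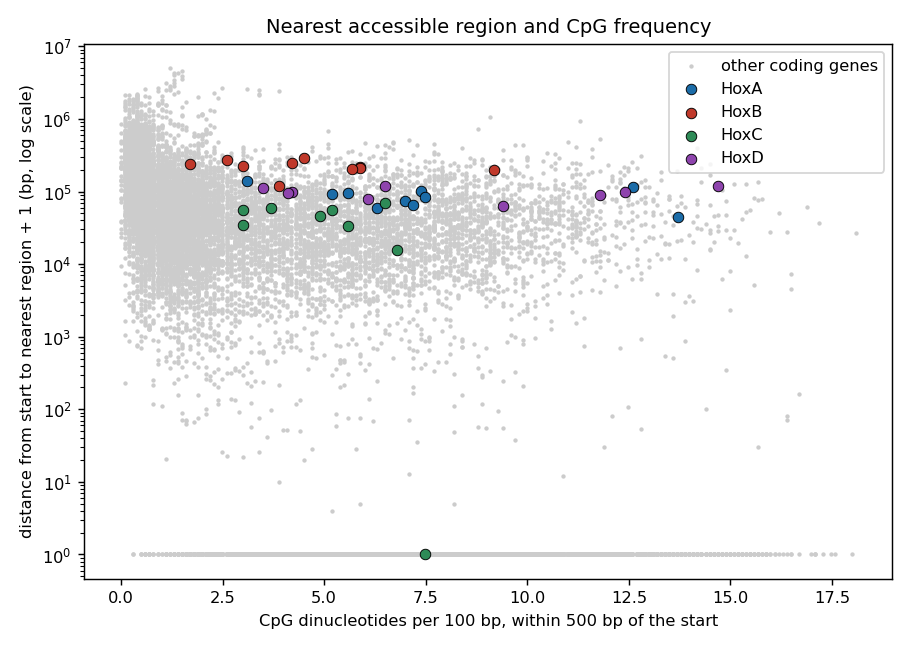
Each point is a coding gene, with CpG per 100 bp at its start on the horizontal axis and the distance to the nearest region plus 1 bp on a logarithmic vertical axis, grey for other genes and colored by cluster for Hox genes. Hox genes spread from 1.7 to 14.7 CpG per 100 bp, and 37 of them lie more than 10 kb from a region while Hoxc13 lies on the baseline.

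Within each cluster the distance followed the position of the gene. In HoxB it fell from 289292 bp at Hoxb1 to 194997 bp at Hoxb9 and 117856 bp at Hoxb13, since the nearest region lay at Atp5g1 beyond the posterior end. In HoxA it was 140228 bp at Hoxa2 and 44766 bp at Hoxa13, measured to a region assigned to Evx1, and Hoxa3 (92302 bp) lay closer than Hoxa4 (113888 bp) because one of its 6 annotated starts is farther upstream. In HoxD it was longest in the middle, with 120344 bp at Hoxd8, 62516 bp at Hoxd1 and 88826 bp at Hoxd13. In HoxC it reached 69317 bp at Hoxc8, between the regions of Hoxc13 and Hoxc4. The posterior genes had the shorter median (69670 bp, 16 genes) and the anterior genes the longer (140228 bp, 7 genes), with overlapping ranges of 0 to 194997 bp and 62516 to 289292 bp. The classes differ in cluster make-up, and the anterior class holds no gene of HoxC, the cluster with the shortest median (45491 bp). In HoxD the order was the reverse, with Hoxd1 (62516 bp) and Hoxd3 (79822 bp) closer than Hoxd9 to Hoxd13 (88826 to 118196 bp).

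**Figure D3:**
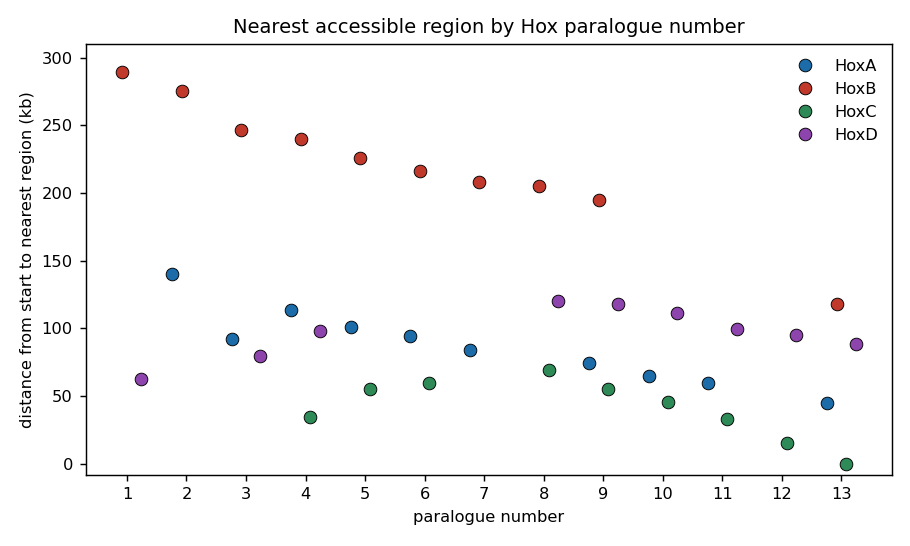
The distance from the start of each Hox gene to the nearest region, in kb, is plotted against paralogue number, colored by cluster. HoxB genes lie above the other clusters at groups 1 to 9, and the values of HoxC include the 2 shortest distances, at Hoxc13 and Hoxc12.

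The spans of the clusters were nearly free of regions. HoxA covers chr6:52112350-52210874 in mm9 (98525 bp, Hoxa2 to Hoxa13), HoxB chr11:96055630-96229570 (173941 bp), HoxC chr15:102751534-102867274 (115741 bp) and HoxD chr2:74506367-74603200 (96834 bp). Regions covered 0 bp of HoxA, HoxB and HoxD and 203 bp of HoxC (0.175%), the part of the Hoxc13 region that lies inside. Over the 485041 bp of the 4 spans, 0.0419% was covered, compared with 0.82% of the genome. GC content was between 48.9% and 50% and there were no unknown bases in the spans.

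A span without a region is common in the genome as a whole and less so where genes are dense. When the genome was divided into windows as long as each span, 57.7% of windows held no region at the length of HoxA, 42.7% at that of HoxB, 53.5% at that of HoxC and 57.9% at that of HoxD. Among windows with at least as many coding genes starting in them as in the cluster, the empty ones were 2 of 23 for HoxA (8.7%), 22 of 157 for HoxB (14%), 7 of 72 for HoxC (9.72%) and 6 of 44 for HoxD (13.6%). The windows on the clusters themselves were not removed.

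The nearest regions outside each cluster were then listed. HoxA lay between a promoter region of Skap2 (chr6:51961989-51963245), 149104 bp from the span, and a region assigned to Evx1 at a distance of -7480 bp from its TSS (chr6:52255640-52256384), 44765 bp from the span. Evx1 encodes an even-skipped homeodomain factor next to Hoxa13. HoxB was flanked by promoter regions of Atp5g1, a mitochondrial ATP synthase subunit gene, at 117855 bp and Snx11, a sorting nexin gene, at 408973 bp. HoxC was flanked by a promoter region of Calcoco1, 198200 bp from the start of the span. On the other side, beyond the Hoxc4 region, lay a region assigned to the DNA repair gene Smug1. Its deposited distance of -76 bp places it at the assigned TSS, whereas in the annotation used here it lay in intergenic sequence. HoxD lay between promoter regions of Lnpk (88825 bp) and Mtx2 (60352 bp). Beyond these flanking regions, the next ones lay 983278 and 378947 bp from the HoxA span. At HoxD they lay 756307 bp from the span on the side of Lnpk. On the other side, past a second Mtx2 region, the next lay at 892500 bp. For HoxB the next regions lay at 186480 and 455357 bp. For HoxC they lay at 227030 bp and, past Smug1, at 178015 bp. The neighbors Calcoco2, Ttll6, Skap1 and Evx2 had no assigned region.

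**Figure D4:**
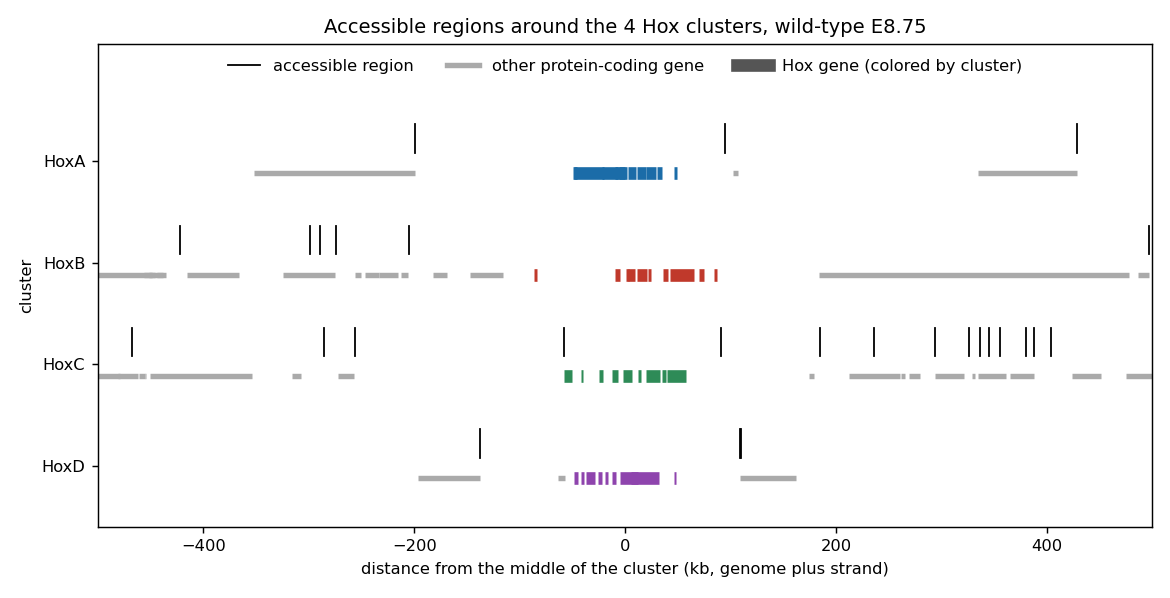
Each row shows 1 cluster with Hox genes as colored blocks, other coding genes as grey bars and accessible regions as black ticks above them, in kb from the middle of the cluster along the plus strand. The blocks of HoxA, HoxB and HoxD have no tick above them, and HoxC has 1, at Hoxc13 on its left edge.

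Each cluster thus fell in a long stretch between 2 neighboring regions. The stretch was 292394 bp for HoxA, 700769 bp for HoxB, 246011 bp for HoxD and 147732 bp for the 8 HoxC genes from Hoxc12 to Hoxc4, compared with a median of 72839 bp over 17143 such stretches. Length alone did not set them apart, since 12.7%, 2.89%, 16% and 27.9% of all stretches were as long or longer. The number of CpG-rich starts inside was less common when counted as genes at or above the coding median of 5.09 CpG per 100 bp. The HoxA stretch held 9, all of them Hox genes, and 2 stretches in the genome held more. The HoxD stretch held 7, with 6 Hox genes and Evx2, and 3 stretches held more. HoxB and HoxC held 4 each, and 38 stretches held more, while 85 stretches, these included, held at least 4. The ranks depended on the threshold. With genes at or above 7.79 CpG per 100 bp, HoxD held 4 (rank 6) and HoxA held 2 (rank 47). At that threshold HoxB held 1 (rank 187) and HoxC held 0 (rank 975), with equal counts sharing the best rank. The 2 stretches with more than HoxA at the coding median were examined after their values were seen. One of 341388 bp on chromosome 15 held 10, among them the broadly expressed genes Ddx17, Csnk1e and Tomm22, and the other of 812983 bp on chromosome 2 held 13. Whether the list used here is complete in such stretches, those of the Hox clusters included, is not known, and each absence of a region is an absence from this list.

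RNA genes inside the clusters were counted too. The spans hold 6 microRNA genes, Mir196b in HoxA, Mir10a and Mir196a-1 in HoxB, Mir196a-2 and Mir615 in HoxC and Mir10b in HoxD, several of which target Hox transcripts. None had an assigned region, where 5.3% of 1565 microRNA genes had one, so a count of 0 of 6 is close to that share. Their nearest regions lay 52036 to 240705 bp from their starts. None of 15 other noncoding genes had one, compared with 11.2% of 3830 genes of the same annotated types, so a count of 0 of 15 is not far from that share. Counted by a region at the start, whatever its assigned gene, it was also 0 of 15, compared with 20.6%. The nearest regions of these 15 genes lay 27115 to 271463 bp away. Hotair in HoxC was the closest of them, at 27115 bp. Over the genome the median distance was 39488 bp for microRNA genes and 24460 bp for the other noncoding types. In all, 62.6% and 49.6% of them lay more than 25 kb from a region.

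The mappability of the starts was examined because Hox genes have paralogues. Within 500 bp of the starts, the share of 31 bp sequences that occur once in the genome had a median of 100% over the 38 Hox genes and was lowest at Hoxc8, with 91.3%. For 7 neighboring genes that had a region, the same share was 96.8 to 100%.

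Genes that act with or on the Hox clusters were counted in the same way, beside the 49.3% of all protein-coding genes, with no test of a difference. Among the cofactors, 8 of 9 had a region (88.9%, interval 56.5 to 98%), with 5 at Meis2 and 4 each at Meis1 and Pknox2, and Pbx2 had none. Among chromatin regulators, 9 of 11 had one (81.8%, 52.3 to 94.9%), including the Polycomb genes Eed, Ezh2, Suz12, Bmi1 and Rnf2 and the Trithorax gene Kmt2a, and Cbx2 and Kmt2d had none, the latter without a matched start in the annotation. Upstream regulators had a region at 6 of 14 genes (42.9%, 21.4 to 67.4%), near the share over all coding genes. Among these were the retinoic acid receptor genes Rarb (7 regions) and Rarg (1), the hindbrain regulator Egr2 (1), Cdx2 (1) and Gdf11 (1). Cdx1, Cdx4, the retinoic acid synthesis gene Aldh1a2, Rara, the retinoic acid degradation genes Cyp26a1, Cyp26b1 and Cyp26c1, and Gbx2 had none.

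Other clustered homeobox genes were counted beside the same 49.3%, again without a test. A region was assigned to 3 of 6 Irx genes (50%, interval 18.8 to 81.2%), which were Irx1, Irx2 and Irx3, and to 2 of 6 Dlx genes (33.3%, 9.68 to 70%), which were Dlx1 and Dlx5. Of the 6 ParaHox genes, the evolutionary sisters of the Hox clusters, Cdx2 had 1 and Gsx1, Gsx2, Pdx1, Cdx1 and Cdx4 had none (16.7%, 3.01 to 56.4%). These intervals cover counting error only, and clustered genes are not independent. No difference from the Hox genes (1.46 to 17.3%) is therefore read from them. The region nearest to a start of Irx5 lay 913 bp from it and was not assigned to Irx5. Within 1 kb of the assigned TSS a region was listed for 2 of the Irx, 1 of the Dlx and 0 of the ParaHox genes. The same count was 1 of 38 for Hox genes and 40.6% for coding genes. The starts of the Irx, Dlx and ParaHox genes were CpG-rich, with medians of 9.64, 7.54 and 6.19 CpG per 100 bp.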

How the data were processed

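ATAC-Seq reads had been processed by the authors, who mapped them to mm9 with Bowtie2, filtered them with SAMtools, removed duplicates with Picard 1.136, called peaks per library with MACS and kept regions shared by the 3 control libraries (at least 1 bp) with bedtools 2.15. The deposited values are region positions and the distance to the assigned TSS, in bp, and the gene assignment tool is not given in the sources used here. A fixed tag extension widens regions, no shift for Tn5 insertion sites is stated, and depth is unknown. Columns left unmapped numbered 0.

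Rows with the same position were counted once (17432 rows, 17164 regions). Positions were taken as 1-based. A gene's start, sequence and neighbors were read from the NCBIM37 genome (which is mm9) and its GENCODE annotation. Gene names of the transcripts were looked up in a RefSeq gene table, and 11161 matched by accession, 359 by symbol, 15 by synonym and 6 not at all. All 38 Hox genes are accounted for by name or in a counted group, with full positions for each with a region. Other genes come from fixed lists of cofactors, regulators, related homeobox genes and cell type markers or lie within 100 kb of a cluster. The genes and lists were chosen with earlier results of these data known. Some items are not reported here, among them another Hox gene, which was left out of all gene counts. No test was run, because 1 list shared by 3 libraries has no value per library. Alternatives were wider regions, gene body overlap, other distances, class bounds, spans and CpG windows. CpG decile alternatives were added after the data had been seen. Functions were tested on simulated data. Python 3.11.15, numpy 2.4.6, pandas 2.3.3, pysam 0.24.0 and matplotlib 3.10.9 were used.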

Additional observations from a re-analysis of the deposited data

How the results depend on the processing

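Of 41 alternative values, 28 stayed within the margin set for them and 13 moved. Several of the 28 could not have moved. A stricter choice of regions can only leave a count of 0 in HoxA, HoxB, HoxD and groups 1 to 3. For groups 9 to 13 the alternative class bounds were the same as the main ones. The number that stayed is therefore no measure of robustness. Leaving out regions narrower than the median (1123 bp) removed both Hox regions, which left 0 genes with a region in all, in HoxC, in groups 4 to 8 and in groups 9 to 13, 0 within 1 kb and 0 distinct regions. Leaving out those narrower than 1421 bp, the upper quartile, also left 0 genes. Counting overlap with the gene body or 1 kb around an annotated start, in place of the assigned gene, left 1 gene in all, 1 in HoxC and 0 in groups 4 to 8, since the Hoxc4 region lies beyond the gene. Moving group 4 to the anterior class gave 1 gene in groups 1 to 4 and 0 in groups 5 to 8. Widening the HoxC span by 10 kb on each side raised the covered share to 0.735%. The sum of CpG decile shares, 23.7, was 21.6 with CpG counted within 250 bp of a start, 23.7 with the median start and 24 with 20 CpG classes, alternatives added after the data had been seen.

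No paired analysis was possible because the values are 1 list common to the 3 control libraries, and for the same reason leaving out a library in turn was not done. The list holds no depth and no score, so regions missed in 1 of the libraries were not examined here, and the part of depth in these counts was not tested.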
